A study of Mus musculus with 9 samples.

Results

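The genes described here are 10 regulators that set how much fat an adipocyte makes and whether it keeps its identity, chosen by name from the 56748 genes of the count table: *Srebf1*, *Scap*, *Insig1* and *Insig2* of the sterol regulatory element-binding protein (SREBP) system, *Mlxipl*, *Nr1h3*, *Pparg*, *Cebpa*, *Cebpb* and *Klf15*. All 10 were found and all passed the filter on low counts. RNA was sequenced from epididymal adipose tissue, a visceral fat depot of the male mouse, of wild-type C57BL/6J males that began a high-fat diet (HFD) at 8 weeks of age. Libraries came from mice after 8 weeks of HFD (Pre), and from mice given a standard diet (SD) for 1 week (WL1) or 2 weeks (WL2) after those 8 weeks, with 3 libraries per phase. No mice kept on HFD over the same weeks were analysed here, so the change of diet and the passing of time cannot be told apart. The labels number the libraries within a phase without naming the animals, so p-values measure the spread between these libraries.

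SREBP-1, the product of *Srebf1*, is made as a membrane protein of the endoplasmic reticulum. SCAP escorts it to the Golgi apparatus, where it is cut and its free end enters the nucleus to switch on genes of fatty acid synthesis, and the INSIG proteins hold SCAP back when sterols are plentiful. ChREBP, encoded by *Mlxipl*, responds to glucose metabolites and shares many of these target genes, and LXRα, encoded by *Nr1h3*, responds to oxysterols and is known to raise *Srebf1* transcription. PPARγ together with C/EBPα and C/EBPβ drives adipocyte differentiation, and KLF15 is a zinc finger factor known for its place in adipocyte differentiation and in fasting metabolism. Nuclear entry and cleavage of these proteins are not measured by RNA sequencing.

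In the SREBP system, *Srebf1* and *Insig1* fell within the first week. *Srebf1* then stayed near its WL1 level, while *Insig1* fell again in the second week and *Insig2* rose. *Klf15* fell at WL1 and rose again by WL2, and *Pparg* rose from WL1 to WL2. With edgeR's quasi-likelihood test and Benjamini-Hochberg adjustment over all 18510 genes tested, 4 of the 10 genes passed the threshold of 0.05 at WL1 against Pre (*Srebf1*, *Mlxipl*, *Insig1* and *Klf15*, all lower), against 7.29% of all genes tested, 2.6% higher and 4.69% lower. At WL2 against Pre, 3 passed (*Srebf1* and *Insig1* lower, *Insig2* higher), against 10% of all genes (3.35% higher and 6.66% lower). At WL2 against WL1, 4 passed (*Pparg*, *Insig2* and *Klf15* higher, *Insig1* lower), against 3.68% of all genes (1.31% higher and 2.37% lower). The libraries of the compared phases did not overlap for 6 of the 10 genes at WL1 against Pre (28.7% of all genes), 6 at WL2 against Pre (30.9%) and 5 at WL2 against WL1 (30.3%). All 10 fold changes at WL1 against Pre were below 0 on the log2 scale (48.0% of all genes), with a median of -0.57 against 0.02 for all genes. At WL2 against Pre 7 of the 10 were below 0 (49.1% of all genes), and at WL2 against WL1 3 were (50.1%). The comparisons share libraries (Pre in the first pair, WL1 and WL2 with the last), so that their fold changes are not independent of one another. The 10 genes and the pathway lists below were chosen with earlier results of these data known. Their counts beside the shares of all genes are therefore descriptions and not tests of the sets.

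**Figure D1:**
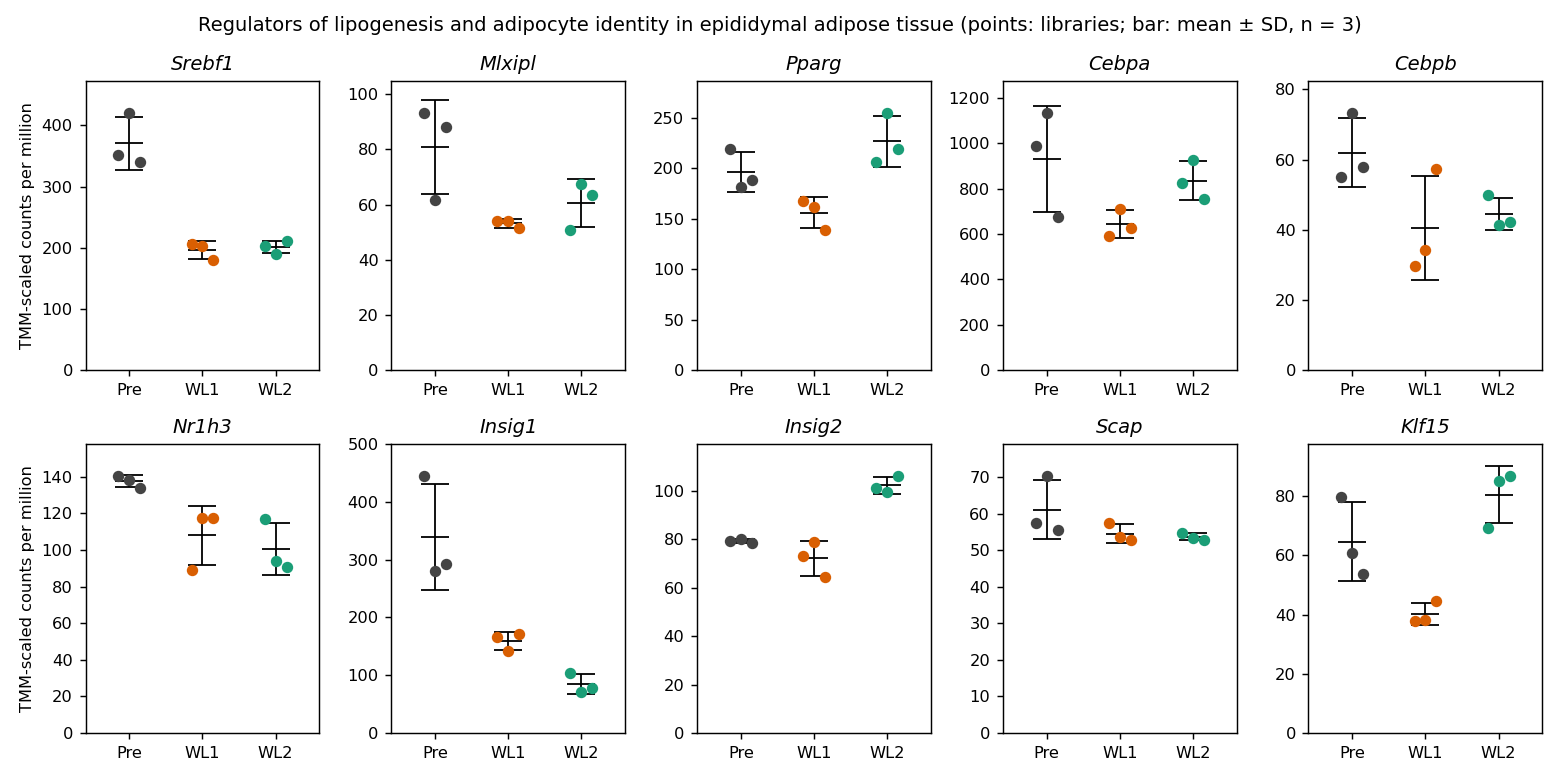
Normalised read counts (CPM, counts scaled to library size by TMM factors, linear axis from 0) of the 10 genes in each library of Pre, WL1 and WL2. Points are libraries and bars show the mean ± SD of 3 libraries. *Srebf1* and *Insig1* lie lower in all WL1 and WL2 libraries than in any Pre library, and *Insig2* lies higher in the WL2 libraries than in all others.

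The libraries held between 16434450 and 22729072 counts. Pre replicate 2 stood apart from the others (score of -69.7 on the first principal component, against -24.9 and -21.7 for the other Pre libraries), and its T and B cell markers summed to 202 CPM against 5.19 to 18.5 CPM elsewhere, so the calls on the 10 genes against Pre are also given without it. Without this library *Pparg*, *Cebpa*, *Cebpb*, *Nr1h3* and *Scap* passed against Pre at neither time, as with it, and among the pathway genes named as changed against Pre the calls lost were those of *Plin1*, *Rxra*, *Ncor1*, *Sgk1* and *Bcat2* at WL1 and of *Pgrmc1*, *Cfd*, *Pck1*, *Adrb3*, *Klf9* and *Esrra* at WL2. WL2 replicate 1 lay apart from the other WL2 libraries on the second principal component (-2.40, against 35.8 and 35.4). Its macrophage markers summed to 3965 CPM, against 2197 and 2474 CPM in these. At WL2 against WL1, 681 genes passed with all libraries and 1351 without WL2 replicate 1. Without WL2 replicate 2 or 3, 37 and 101 passed. The 8 adipocyte markers summed to between 27941 and 34598 CPM at Pre, 20235 and 25721 CPM at WL1 and 25528 and 29978 CPM at WL2. Of these markers, 3 fell at WL1 (*Plin1*, *Cidec* and *Lep*) and 2 at WL2 (*Cidec* and *Lep*), and none was at 0. The 14 macrophage markers summed to 1959 to 3602 CPM at Pre, 3646 to 6913 CPM at WL1 and 2197 to 3965 CPM at WL2, and 2 of them (*Trem2* and *Cd9*) rose at WL1. In tissue RNA, fewer cells of a type and less RNA per cell cannot be told apart, and the part of these shifts in the results that follow was not tested. Without further scaling of the library totals, the median gene shifted by 0.12 at WL1 and 0.16 at WL2 against Pre on the log2 scale, and the share of higher genes among those past the threshold was 60.9% in place of 35.7% at WL1 and 64.1% in place of 33.5% at WL2. At WL2 against WL1 this share was 35.5%, and 48.3% with upper quartile factors.

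Per gene length, the 10 transcripts differed widely in level. Levels are given as FPKM, which scale the reads of a gene by its length and by the library. At Pre, *Cebpa* was the most abundant at 331 ± 83.7 FPKM (SD, n = 3), followed by *Insig1* at 103 ± 27.7, and these did not overlap each other or the next gene. *Pparg* (62.3 ± 6.23 FPKM) and *Srebf1* (61.8 ± 7.22 FPKM) could not be ordered, since their libraries overlapped. *Nr1h3* (51.4 ± 1.22 FPKM) and *Cebpb* (38.7 ± 6.20 FPKM) came next without overlap. *Klf15* (21.8 ± 4.47 FPKM) and *Insig2* (21.5 ± 0.19 FPKM) overlapped, and *Mlxipl* (13.7 ± 2.86 FPKM) and *Scap* (7.71 ± 1.02 FPKM) were the lowest. By WL2, *Insig1* had moved from rank 2 to rank 8 of the 10 by mean, at 25.5 ± 4.78 FPKM. Its libraries there overlapped those of *Klf15* (27.1 ± 3.68 FPKM), *Insig2* (27.7 ± 1.16 FPKM) and *Cebpb* (27.8 ± 2.41 FPKM), so these genes could not be ordered. *Cebpa* remained the highest and *Scap* the lowest of the 10 in each phase.

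**Figure D2:**
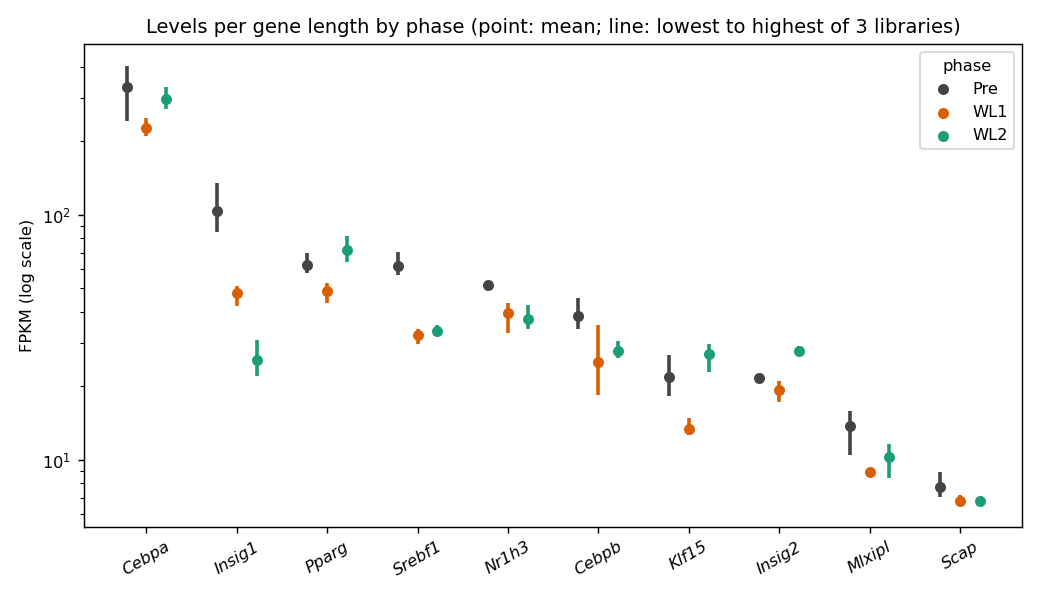
Levels per gene length (FPKM, log axis) of the 10 genes, ordered by their mean at Pre. Points are means of 3 libraries and lines run from the lowest to the highest library. *Insig1* drops from 103 FPKM at Pre to 25.5 FPKM at WL2, where of the 10 genes *Mlxipl* and *Scap* alone had lower means, while *Cebpa* stays at the top and *Scap* at the bottom.

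*Srebf1* encodes the SREBP whose targets are mainly enzymes of fatty acid synthesis. Its level was 352, 420 and 340 CPM in the Pre libraries, 206, 202 and 180 CPM at WL1 and 203, 190 and 210 CPM at WL2. The Pre libraries lay above all others, and WL1 and WL2 overlapped. *Srebf1* was thus 1.89-fold lower at WL1 than at Pre (log2 fold change -0.92, SE 0.12, edgeR Benjamini-Hochberg adjusted p = 0.00171) and 1.84-fold lower at WL2 (-0.88, SE 0.12, edgeR adjusted p = 0.00111). WL2 and WL1 did not differ past the threshold (0.04, 95% confidence interval from -0.22 to 0.29). Both falls passed in each of the 20 alternative settings tried, leave-one-out fits included, and without Pre replicate 2 they were -0.82 and -0.79.

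RefSeq (GRCm38.p6) lists 3 start sites for *Srebf1* on the minus strand of chromosome 11, and counts per gene do not separate their transcripts. The stretch before the most downstream start is shown because *Srebf1* fell early and stayed low, and because it holds a CATGTG E-box, a site type bound by SREBP and by other helix-loop-helix factors, beside an inverted CCAAT box, the binding motif of NF-Y, a known partner of SREBP. It lies at chr11:60210472-60210721. Capitals mark both motifs, which begin at positions -24 and -30 from the start.
Srebf1: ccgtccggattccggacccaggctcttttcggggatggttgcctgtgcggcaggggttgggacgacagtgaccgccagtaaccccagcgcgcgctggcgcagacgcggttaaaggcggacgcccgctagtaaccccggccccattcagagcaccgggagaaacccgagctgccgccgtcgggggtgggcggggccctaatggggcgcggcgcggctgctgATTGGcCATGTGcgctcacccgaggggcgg
CATGTG occurred on either strand in 14.2% of all 32851 RefSeq windows that run from 250 bases before to 50 after a start, and CCAAT in 37.4%. The core TCACNCCAC of the classical sterol regulatory element occurred in 1.24% of windows, and in 1 of the 19 windows of these 10 genes, a window of *Mlxipl*. Such matches describe the letters and not the binding of a factor.

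*Insig1* and *Insig2* encode the pair of membrane proteins that retain SCAP, and *Insig1* is itself a known target of SREBP. *Insig1* measured 445, 280 and 293 CPM at Pre, 166, 141 and 171 CPM at WL1 and 104, 71.6 and 77.0 CPM at WL2, so that its libraries fell into successive ranges without overlap. It was 2.13-fold lower at WL1 than at Pre (log2 fold change -1.09, SE 0.20, edgeR adjusted p = 0.0121), and 4.03-fold lower at WL2 (-2.01, SE 0.21, edgeR adjusted p = 0.000254). The second week alone brought a fall of 1.89-fold (-0.92, SE 0.20, edgeR adjusted p = 0.0363). Without Pre replicate 2 the falls against Pre were -1.21 and -2.13, both past the threshold. The fall of the second week lost the threshold when any WL1 library, WL2 replicate 2 or WL2 replicate 3 was left out, the leave-one-out values running from -1.10 to -0.82.

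*Insig2* moved the other way in the second week. It measured 79.5, 80.0 and 78.6 CPM at Pre, 73.1, 78.9 and 64.6 CPM at WL1 and 101, 99.6 and 106 CPM at WL2, and every WL2 library lay above all Pre and WL1 libraries. At WL1 against Pre it did not pass the threshold (-0.14, interval from -0.36 to 0.09). It rose 1.42-fold from WL1 to WL2 (log2 fold change 0.50, SE 0.10, edgeR adjusted p = 0.0278) and was 1.29-fold higher at WL2 than at Pre (0.37, SE 0.10, edgeR adjusted p = 0.0443). The rise against Pre passed in 1 of the 9 leave-one-out fits, that without WL1 replicate 3, and missed the threshold without Pre replicate 2 (0.37, edgeR adjusted p = 0.0684). The rise from WL1 failed with any WL1 library or WL2 replicate 2 or 3 omitted (leave-one-out values from 0.45 to 0.57).

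Within each library, the ratio of *Insig1* to *Insig2* in FPKM was 6.29, 3.92 and 4.19 at Pre, 2.54, 2.01 and 2.96 at WL1 and 1.15, 0.81 and 0.81 at WL2. The phases did not overlap. *Insig1* was thus the more abundant of the pair per gene length in all Pre and WL1 libraries, and at WL2 the pair stood at about equal level, with *Insig2* ahead in replicates 2 and 3.

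**Figure D3:**
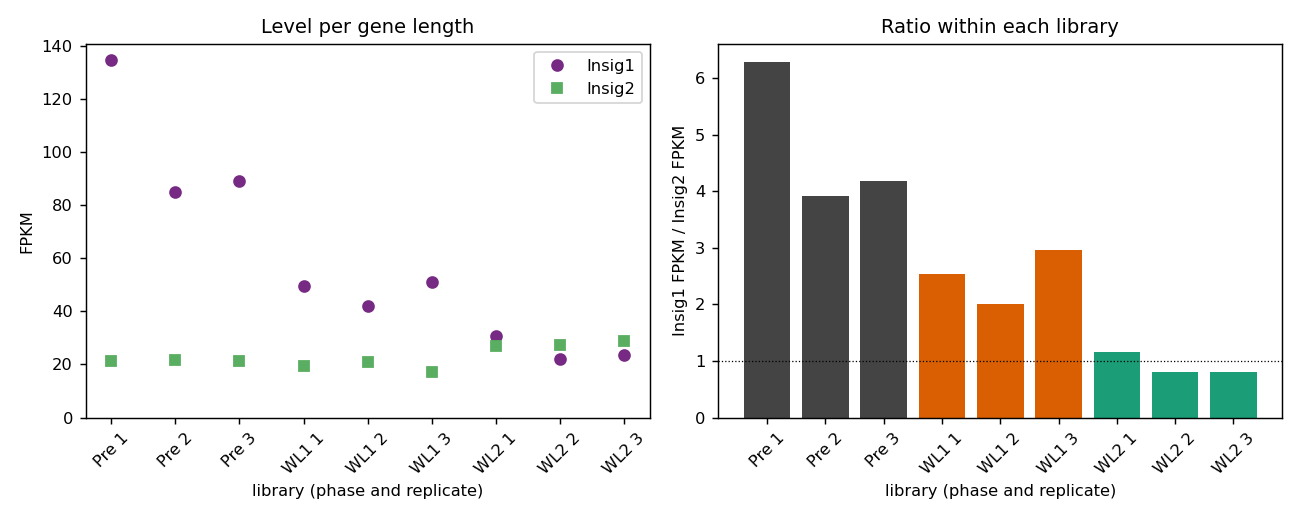
Left, levels of *Insig1* and *Insig2* per gene length (FPKM, linear axis from 0) in each library. Right, the ratio of *Insig1* to *Insig2* FPKM within each library, with a dotted line at 1. The ratio runs from 3.92 to 6.29 at Pre, from 2.01 to 2.96 at WL1 and from 0.81 to 1.15 at WL2.

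The stretches before the starts of this pair are shown because the transcripts moved apart. That of *Insig1* lies on the plus strand at chr5:28071162-28071362 and ends before the first exon of GENCODE M21. That of *Insig2* lies on the minus strand at chr1:121332590-121332839, before the most upstream of 3 starts. Capitals mark CACGTG E-boxes, AGGTCA half-sites of nuclear receptors, and CCAAT boxes in either orientation.
Insig1: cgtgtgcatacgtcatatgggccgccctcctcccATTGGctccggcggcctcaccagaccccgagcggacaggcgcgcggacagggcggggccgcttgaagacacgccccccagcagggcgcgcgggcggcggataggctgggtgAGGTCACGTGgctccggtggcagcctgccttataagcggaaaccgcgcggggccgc
Insig2: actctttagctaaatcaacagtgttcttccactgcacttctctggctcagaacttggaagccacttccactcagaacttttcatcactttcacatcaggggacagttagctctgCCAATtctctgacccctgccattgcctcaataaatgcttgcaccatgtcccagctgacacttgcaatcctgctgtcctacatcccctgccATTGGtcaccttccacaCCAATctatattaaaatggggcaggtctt
In *Insig1* the run of capitals holds AGGTCA at position -105 from the RefSeq start and CACGTG at -101, which overlap by 2 bases, and an inverted CCAAT lies at -216. The printed window of *Insig2* holds CCAAT boxes at -136, -46 and -29, and its other windows hold no CCAAT box. Neither of the other motifs lies in any of its 3 windows. Counts per gene do not separate the transcripts of these starts. CACGTG occurred in 7.15% of all windows and AGGTCA in 16.3%.

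*Scap*, the escort protein of SREBP, measured 57.4, 70.3 and 55.6 CPM at Pre, 57.4, 53.6 and 52.7 CPM at WL1 and 54.7, 53.3 and 52.9 CPM at WL2. It passed the threshold in none of the comparisons by edgeR or in any alternative, DESeq2 and limma included, and the interval at WL2 against Pre ran from -0.43 to 0.06. At WL2 against WL1 its estimate of -0.02 (interval from -0.27 to 0.22) changed sign with other filters and scalings. *Srebf2*, which encodes the SREBP with mainly cholesterol synthesis targets, did not pass either, with log2 fold changes of -0.12 at WL1 and -0.37 at WL2 against Pre (edgeR adjusted p = 0.727 and 0.235). The proteases that cut SREBP, *Mbtps1* (-0.07 and 0.01) and *Mbtps2* (0.31 and 0.22), also missed the threshold.

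Of 17 genes listed for SREBP processing and turnover, 0 passed by edgeR at WL1 against Pre, where 4 had an unadjusted p under 0.05. At WL2 against WL1 0 passed, where 4 had such a p. DESeq2 called 0 at WL1 and 2 at WL2 against WL1. The share of all genes with an unadjusted p under 0.05 is not given here. By edgeR's adjusted p, 7.29% of all genes tested passed at WL1 against Pre, 10% at WL2 against Pre and 3.68% at WL2 against WL1. At WL2 against Pre, *Pgrmc1* (0.35) passed upward and *Faf2* (-0.41), *Erlin2* (-0.35) and *AU040320* (-0.51) downward. *AU040320* was entered in the list in error and is not a gene of SREBP processing, but the counts of this list include it. *Faf2* and *Erlin2* encode proteins of the degradation machinery of the endoplasmic reticulum. Without WL2 replicate 2 none of these 4 passed, and with others left out 2 or 3 did.

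Enzymes downstream of SREBP-1 and ChREBP also fell. Of 19 lipogenic genes tested, 14 fell at WL1 against Pre (median log2 fold change of the list -1.01, against 0.02 for all genes), and 11 fell and 1 rose at WL2 (median -0.69). Of all genes tested, 4.69% fell at WL1, and 6.66% fell and 3.35% rose at WL2. *Fasn*, the fatty acid synthase, went from 2642 ± 328 CPM (SD, n = 3) at Pre to 514 ± 115 CPM at WL1 and 321 ± 128 CPM at WL2, with log2 fold changes against Pre of -2.36 (SE 0.28) and -3.04 (SE 0.29). *Scd2*, a stearoyl-CoA desaturase, changed by -2.27 and -3.29, and *Pnpla3*, a lipid droplet protein induced by SREBP-1 and ChREBP, by -2.22 and -1.75. *Acacb*, which makes the malonyl-CoA that restrains fatty acid oxidation, rose at WL2 (0.81, SE 0.15, edgeR adjusted p = 0.00737). In the second week *Acaca* (0.50) and *Thrsp* (0.95) rose and *Scd2* fell by 1.02 on the log2 scale, while 16 of the 19 did not pass, counts that ranged from 0 to 6 called genes as single libraries were left out (0 with WL1 replicate 3 or WL2 replicate 2 omitted, 1 with WL2 replicate 3 omitted, and 6 with Pre replicate 2 or WL2 replicate 1 omitted).

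Sterol targets of SREBP-2 fell as well. Of 20 such genes, 12 fell at WL1 (4.69% of all genes tested) and 14 at WL2 against Pre (6.66% of all). Of the 20, 0 rose in either (median -0.72 and -0.97). Without WL1 replicate 1 or WL1 replicate 2 the count at WL1 was 7. *Hmgcs1*, the HMG-CoA synthase, changed by -0.99 and -1.60 (SE 0.17 in both).

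**Figure D4:**
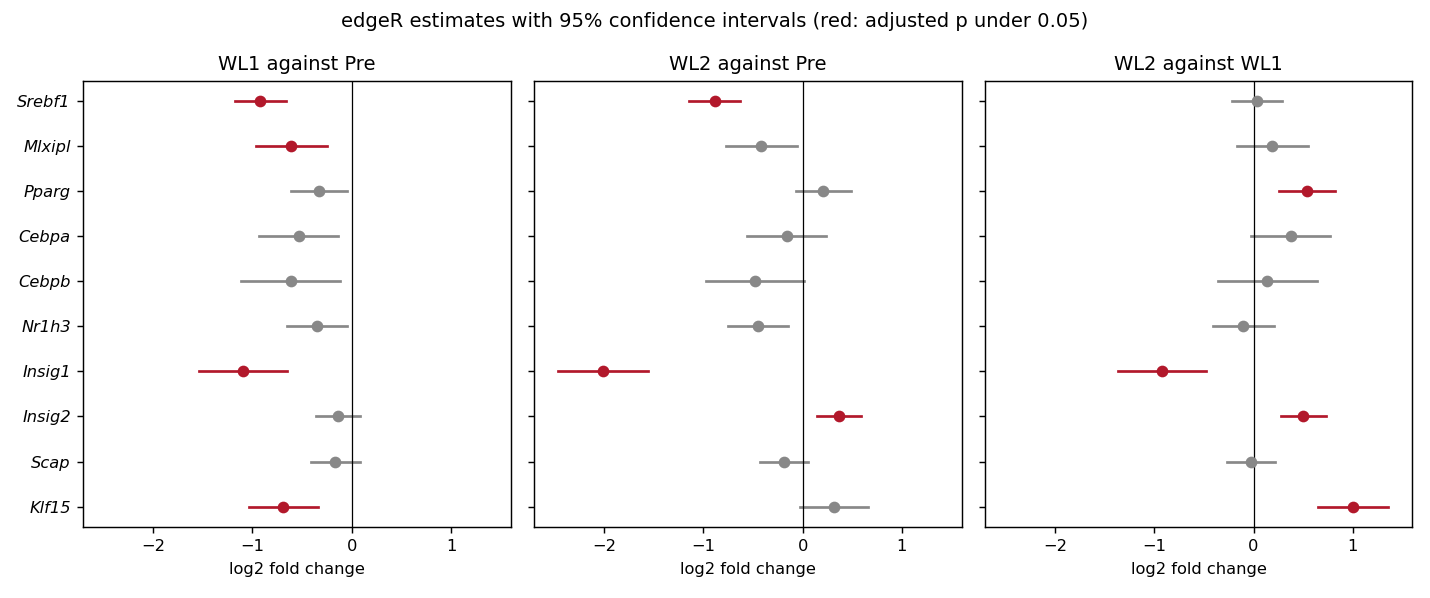
Log2 fold changes of the 10 genes with 95% confidence intervals from edgeR, in the comparisons of WL1 against Pre, WL2 against Pre and WL2 against WL1. Red marks an adjusted p under 0.05. *Insig1* lies left of 0 in each panel, *Srebf1* in the first and second only, and *Klf15* changes side between WL1 against Pre (-0.69) and WL2 against WL1 (1.00).

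*Mlxipl* encodes ChREBP. It measured 93.1, 61.5 and 88.2 CPM at Pre, 53.9, 54.1 and 51.4 CPM at WL1 and 50.8, 67.5 and 63.4 CPM at WL2. The WL1 libraries lay close together and below all Pre libraries, of which replicate 2 was by far the lowest, and WL2 overlapped both. The fall at WL1 was 1.52-fold and lay at the threshold (log2 fold change -0.61, SE 0.16, edgeR adjusted p = 0.0492). It passed in 7 of the 20 alternatives and in 2 of the 9 leave-one-out fits, those that omitted Pre replicate 2 (-0.77) or WL2 replicate 1. At WL2 against Pre *Mlxipl* changed by -0.42 (edgeR adjusted p = 0.132) and passed only without Pre replicate 2 (-0.58, edgeR adjusted p = 0.0210).

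Its binding partner *Mlx* (-0.18 at WL1 and -0.35 at WL2 against Pre) and the paralog *Mlxip* (0.24 and 0.16) did not pass the threshold. Of 13 genes of the ChREBP family and of glucose sensing, 1 fell at WL1 against Pre (2 passed without Pre replicate 3), while 1 rose and 2 fell at WL2. Over all genes tested, 7.29% passed at WL1 against Pre, 10% at WL2 against Pre and 3.68% at WL2 against WL1. *Gpd1*, which links glycolysis to glycerol 3-phosphate, fell at both (-1.02 and -1.54). *Ppp1r3b*, a glycogen-targeting phosphatase subunit, fell at WL2 (-0.97, lost without Pre replicate 1, WL2 replicate 2 or WL2 replicate 3), and *Txnip*, a glucose-induced inhibitor of thioredoxin, rose at WL2 (0.98, SE 0.12). *Txnip* was also the 1 gene of the list past the threshold from WL1 to WL2 (0.55), which held in 3 of the 9 leave-one-out fits and failed when Pre replicate 3, a WL1 library or WL2 replicate 2 or 3 was omitted (2 genes passed without Pre replicate 2 or WL2 replicate 1). The median of the list was -0.12 at WL1 and -0.22 at WL2 against Pre.

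*Nr1h3* encodes LXRα. It measured 141, 139 and 134 CPM at Pre, 89.3, 117 and 118 CPM at WL1 and 117, 94.2 and 91.0 CPM at WL2, so that all WL1 and WL2 libraries lay below the Pre libraries, which were close together. The change missed the threshold at WL1 (-0.35, SE 0.14, edgeR adjusted p = 0.152) and at WL2 against Pre (-0.45, SE 0.14, edgeR adjusted p = 0.0660), where it passed with DESeq2 and with WL1 replicate 1 or WL2 replicate 1 omitted. The sister receptor *Nr1h2* changed by 0.11 and 0.12 without passing. Their partner *Rxra*, which also pairs with PPARγ, fell at both times (-0.52 and -0.61, SE 0.11 and 0.12). Its call at WL1 was lost without Pre replicate 2.

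Of 16 LXR partners and targets, 3 rose and 1 fell at WL1 against Pre, and 2 rose and 2 fell at WL2. Of all genes tested, 2.6% rose and 4.69% fell at WL1, and 3.35% rose and 6.66% fell at WL2. *Abcg1*, a cholesterol exporter, rose at WL1 (1.23, SE 0.23, edgeR adjusted p = 0.0133) from 91.7, 91.7 and 123 CPM to 192, 223 and 305 CPM, and missed the threshold at WL2 (0.72, edgeR adjusted p = 0.0779). *Pltp*, the phospholipid transfer protein, rose at WL1 (1.05, SE 0.28, past the threshold in 2 of the 9 leave-one-out fits) and measured 0.06 at WL2. *Apoe* rose at WL2 (1.08, SE 0.16), and *Ncor1*, a nuclear receptor corepressor, rose at both times (0.52 and 0.62). The *Ncor1* call at WL1 was lost without Pre replicate 2. *Apoe*, *Abcg1* and *Pltp* are also made by macrophages. *Pltp* measured 692, 693 and 1038 CPM at WL1 and 586, 321 and 308 CPM at WL2, so that its highest library of each phase after Pre was also that with the highest sum of macrophage markers. *Apoe* was highest at WL2 (6239, 6571 and 5582 CPM, against 3512 to 4526 CPM at WL1), when that sum was 2197 to 3965 CPM and below its highest values at WL1. The part of macrophages in the changes of these genes was not tested. The count of 4 at WL1 ranged from 0 (without Pre replicate 1) to 4, with 1 without WL1 replicate 1 or 2 and 2 without Pre replicate 2, WL1 replicate 3 or WL2 replicate 2 or 3.

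*Pparg*, the central factor of adipocyte differentiation, measured 219, 181 and 188 CPM at Pre, 167, 161 and 139 CPM at WL1 and 206, 254 and 219 CPM at WL2. The WL1 libraries were the lowest and overlapped neither group, and Pre and WL2 overlapped. *Pparg* rose 1.45-fold from WL1 to WL2 (log2 fold change 0.54, SE 0.13, edgeR adjusted p = 0.0456). That call held in 10 of the 20 alternatives and failed when Pre replicate 3, a WL1 library or WL2 replicate 2 or 3 was omitted (values of the leave-one-out fits from 0.45 to 0.60). Neither the change at WL1 against Pre (-0.33, edgeR adjusted p = 0.140) nor that at WL2 (0.21, edgeR adjusted p = 0.322) passed.

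*Cebpa*, which sustains the mature adipocyte with PPARγ, measured 987, 1132 and 673 CPM at Pre, 591, 711 and 625 CPM at WL1 and 826, 924 and 752 CPM at WL2. The Pre libraries spread beyond the range of WL2 on both sides and overlapped WL1, and the WL2 libraries lay above all WL1 libraries. *Cebpa* passed in no comparison (-0.53 at WL1 and -0.16 at WL2 against Pre, and 0.38 at WL2 against WL1), and passed at WL1 with DESeq2 and without Pre replicate 3. *Cebpb*, which acts early in differentiation, measured 54.9, 73.2 and 57.8 CPM at Pre, 29.7, 34.4 and 57.4 CPM at WL1 and 49.9, 41.4 and 42.3 CPM at WL2. WL1 replicate 3 lay within the range of Pre while the other WL1 libraries were the lowest of the 9. The change at WL1 was -0.62 (SE 0.22, edgeR adjusted p = 0.126) with all libraries and -0.96 without WL1 replicate 3, when it passed. It also passed with all libraries when no filter on low counts was used (-0.61, edgeR adjusted p = 0.0449), and neither *Cebpb* comparison of WL2 passed.

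Of 23 tested genes of adipocyte identity, many of them known PPARγ targets, 6 fell and 0 rose at WL1 against Pre, with 18 of the 23 fold changes below 0 and a median of -0.45 on the log2 scale. At WL2 against Pre 4 rose and 6 fell (median -0.13), and from WL1 to WL2 3 rose and 2 fell (median 0.26). The shares of all genes tested that passed were 7.29%, 10% and 3.68% in these comparisons. *Dgat2*, which makes triglyceride, fell at both times (-1.62 and -2.42) and so did *Lep*, the adipokine leptin (-0.83 and -2.03). *Retn*, the adipokine resistin, fell at WL1 (-1.86, SE 0.24) and then rose from WL1 to WL2 (1.51, SE 0.24), from 909, 723 and 667 CPM at Pre to 187, 297 and 149 CPM and back to 514, 625 and 666 CPM. *Cfd*, or adipsin (1.61, SE 0.40), *Pck1*, the key enzyme of glyceroneogenesis (1.26, SE 0.33), and *Adrb3*, the adipocyte beta-adrenergic receptor (0.97, SE 0.24), rose at WL2 against Pre. The calls of these rises against Pre were all lost without Pre replicate 2. *Cfd* and *Adrb3* also rose from WL1 to WL2 (1.94 and 1.59). Without Pre replicate 3, WL2 replicate 2 or WL2 replicate 3 the 10 calls at WL2 against Pre became 5, 4 and 4, and without WL2 replicate 2 or 3 the 5 calls at WL2 against WL1 became 1 and 2.

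Among 27 other transcription factors and cofactors of adipocytes, 1 rose (*Klf6*) and 3 fell (*Stat5a*, *Rxra* and *Zfp423*) at WL1 against Pre, and 5 rose and 5 fell at WL2. Over all genes tested, 7.29% passed at WL1 against Pre, 10% at WL2 against Pre and 3.68% at WL2 against WL1. *Cebpd*, which like *Cebpb* acts early in differentiation, measured 35.8, 54.4 and 61.3 CPM at Pre, 43.0, 44.7 and 55.2 CPM at WL1 and 88.4, 80.6 and 113 CPM at WL2. It rose at WL2 against Pre (0.89, SE 0.20, edgeR adjusted p = 0.0204) and against WL1 (0.98, SE 0.20, edgeR adjusted p = 0.0313), the only gene of the 27 past the threshold in the latter, where it failed with any WL1 library or WL2 replicate 2 or 3 omitted and 2 genes passed without Pre replicate 1 or 2 or WL2 replicate 1. *Klf4* (0.75) and *Klf9* (0.71) rose at WL2. *Zfp423*, a marker of preadipocyte commitment, fell at both times (-0.57 and -0.97), and *Tle3* and *Esrra* each fell by 0.55 on the log2 scale at WL2. Without Pre replicate 2 the calls of *Klf9* and *Esrra* at WL2 against Pre were lost. The counts at WL2 against Pre moved from 10 to 5 without Pre replicate 1 or WL2 replicate 2 and to 4 without WL2 replicate 3, and those at WL1 from 4 to 2 without Pre replicate 1 or WL1 replicate 2 and to 1 without WL1 replicate 1 or 3.

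*Klf15* had the largest estimated change of the 10 genes from WL1 to WL2, close in size to that of *Insig1* (-0.92, SE 0.20). *Klf15* measured 79.6, 60.7 and 53.8 CPM at Pre, 37.8, 38.2 and 44.6 CPM at WL1 and 69.4, 85.1 and 86.9 CPM at WL2. The WL1 libraries lay below all others, and Pre and WL2 overlapped. *Klf15* was 1.61-fold lower at WL1 than at Pre (log2 fold change -0.69, SE 0.16, edgeR adjusted p = 0.0292) and doubled from WL1 to WL2 (1.00, SE 0.16, edgeR adjusted p = 0.0124), and WL2 did not differ from Pre past the threshold (0.32, interval from -0.03 to 0.66). The fall was lost without Pre replicate 1 or any WL1 library (leave-one-out values from -0.80 to -0.51) and was -0.73 without Pre replicate 2. The rise was lost without WL1 replicate 2, WL2 replicate 2 or WL2 replicate 3, the leave-one-out values running from 0.94 to 1.10.

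The stretch before the single RefSeq start of *Klf15* is shown because the gene turned direction and because this window holds more CACGTG E-boxes than that of any other of the 10 genes. It lies on the plus strand at chr6:90462326-90462575. Capitals mark CACGTG at positions -228 and -172, a CCAAT box at -62, and at the end the first bases of a CACGTG that begins at -3 and crosses the start.
Klf15: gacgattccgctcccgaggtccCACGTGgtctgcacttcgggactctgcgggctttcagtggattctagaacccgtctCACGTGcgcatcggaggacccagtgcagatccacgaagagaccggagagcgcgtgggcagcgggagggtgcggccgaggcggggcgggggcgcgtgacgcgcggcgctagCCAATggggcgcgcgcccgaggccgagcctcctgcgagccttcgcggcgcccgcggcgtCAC
CACGTG is also bound by the clock factors and by MYC-type factors. Besides *Klf15* and *Insig1*, it lay in a window of *Mlxipl* and of *Scap*, so in 4 of the 10 genes. A pattern for the glucocorticoid receptor, ACANNNTGT, was in 0 of the 19 windows and in 6.85% of all windows, and a C/EBP pattern, TTGCNNAA, was in 1 window of *Pparg* and in 10.8% of all.

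Of 15 tested genes linked to glucocorticoids, fasting or KLF15, 2 rose and 2 fell at WL1 against Pre and 3 rose and 1 fell at WL2. Over all genes tested, 7.29% passed at WL1 against Pre, 10% at WL2 against Pre and 3.68% at WL2 against WL1. *Pdk4*, which limits glucose oxidation in fasting, rose at both times (1.69 and 1.36), as did *Sgk1* (0.73 and 1.19), a kinase induced by glucocorticoids. *Klf9*, a glucocorticoid target, rose at WL2 (0.71). Without Pre replicate 2 the calls of *Sgk1* at WL1 and of *Klf9* at WL2 were lost. *Prodh*, the proline dehydrogenase known as a KLF15 target, fell at both (-1.35 and -0.69). *Bcat2*, the branched-chain aminotransferase known to be controlled by KLF15, measured 183, 157 and 139 CPM at Pre, 103, 125 and 108 CPM at WL1 and 159, 188 and 157 CPM at WL2. It fell at WL1 (-0.51, SE 0.13, edgeR adjusted p = 0.0463) and was the 1 gene of the list that rose from WL1 to WL2 (0.59, SE 0.13, edgeR adjusted p = 0.0428). The fall of *Bcat2* held in 1 of the 9 leave-one-out fits, that without Pre replicate 3, and its rise failed with a WL1 library or WL2 replicate 2 or 3 omitted (2 genes passed without Pre replicate 1 or 2, and 3 without WL2 replicate 1). The 4 calls at WL1 became 2 without Pre replicate 1 or 2 or WL1 replicate 2 or 3, and the 4 at WL2 became 2 without Pre replicate 1 or WL2 replicate 3.

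**Figure D5:**
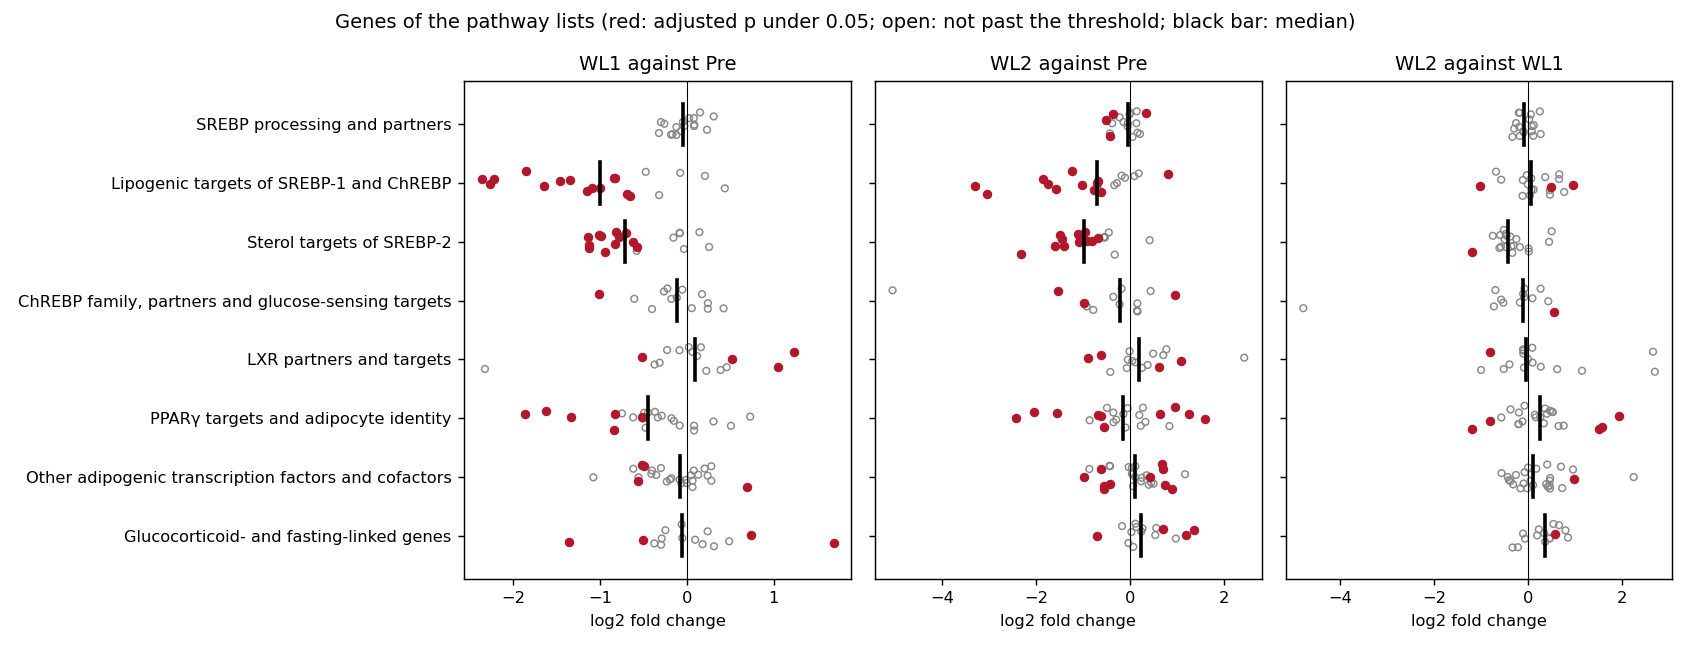
Log2 fold changes of each tested gene of the 8 pathway lists in the comparisons of WL1 against Pre, WL2 against Pre and WL2 against WL1. Red points have an adjusted p under 0.05, open points do not, and the black bar is the median of the list, with a narrower axis in the left panel. Lipogenic and sterol genes lie mostly left of 0 against Pre (medians of -1.01 and -0.72 at WL1). The calls of the adipocyte identity list lie only left of 0 at WL1 (median -0.45) and on both sides at WL2. The remaining lists hold calls on both sides or few calls.

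Genes were also ranked by how closely their log2 CPM, centred on its mean over the 9 libraries, followed each of the 6 genes above that passed the threshold in some comparison (root mean square difference over 9 libraries, among 13056 protein-coding genes). The nearest to *Srebf1* were *Pank3* (0.07), which makes coenzyme A, the mitochondrial gene *mt-Nd1* (0.09) and *Pcx* (0.10), the pyruvate carboxylase. The mitochondrial share of all counts, 3.15% to 3.57% at Pre, 1.86% to 2.03% at WL1 and 2.28% to 2.88% at WL2, was also higher in all Pre libraries than in any other, and its part in the likeness of *mt-Nd1* was not tested. *Pank3* measured 312, 404 and 331 CPM at Pre, 185, 188 and 152 CPM at WL1 and 171, 182 and 200 CPM at WL2. The nearest to *Insig1* were *Lbp* (0.21), which binds lipopolysaccharide, *Gpc1* (0.22), a glypican, and *Mtarc1* (0.22). *Lbp* went from 812, 645 and 788 CPM to 298, 322 and 391 CPM and then to 175, 158 and 186 CPM. The nearest to *Klf15* were *Fahd2a* (0.15), *Ppp1r3c* (0.17), a glycogen-targeting phosphatase subunit, and *Rab40b* (0.17). *Csad*, *Acadsb* and *Blcap* came nearest to *Pparg* (0.07 to 0.08), *Ybx3*, *Ttc8* and *Mrpl45* to *Insig2* (0.06 to 0.08), and *Aox1*, *Acad9* and *Sfxn5* to *Mlxipl* (0.09 to 0.10). The root mean square of each gene's own centred values was 0.43 for *Srebf1*, 0.85 for *Insig1* and 0.45 for *Klf15*. It was 0.25 for *Pparg*, 0.23 for *Insig2* and 0.31 for *Mlxipl*. A smaller difference therefore does not mean a closer likeness between genes of unlike spread.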

How the data were processed

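RNA of epididymal adipose tissue was analysed in 9 libraries (Pre, WL1 and WL2, 3 each), grouped by the sample labels. The authors deposited raw read counts for each gene, and FPKM values of the same libraries, which the deposited table scales to another library total than the sum of the counts. The submitters' processing notes name HISAT2, HISAT, TopHat2 and CASAVA and the builds GRCm38 and mm10. For the counting program and strand setting the sources used here give no name. Coordinates of the 10 genes in the deposited table matched GENCODE M21 on GRCm38 for 0 of them, so positions are from RefSeq (GRCm38.p6), whose promoter table held all 10. Motif positions are counted on the strand of the gene from the RefSeq start, the last base before it being -1.

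Genes that reached 0.5 CPM in 1 library or more were tested with edgeR 4.0.16 in R 4.3.3 (glmQLFit and glmQLFTest, TMM factors, 1 model over 9 libraries, Benjamini-Hochberg adjustment). CPM are TMM-scaled, and log2 CPM used a prior count of 4. Standard errors and 95% intervals come from the same fit. Alternatives were DESeq2 1.42.0, a block for the replicate number, and relative log expression factors, upper quartile factors or library totals. Others were the CPM minimum in 3 libraries or none, models of only the phases compared, and each library omitted in turn. Limma 3.58.1 was run on FPKM (log2 scale, pseudocount 1 or 0.1, and pseudocount 1 without a filter). The test was tested on simulated counts. Replicates differed beyond counting error (chi-square over its degrees of freedom 9.13 to 48.9).

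The 10 genes and the lists were chosen with earlier results of these data known. Of each list, the text names the 3 largest rises and falls among genes past the threshold at WL1 or WL2 against Pre and the partners or paralogs of the 10 genes. *Acaca*, *Thrsp*, *Ncor1*, *Klf6*, *Stat5a*, *Faf2*, *Erlin2*, *Pgrmc1* and *AU040320*, with the named cell type markers, complete short counts and were chosen after their values were seen where that rule does not name them. *Mt2* and *Pklr* were too low to test. Some genes that this rule picks are not reported here by name and stay in the counts of their lists.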

Additional observations from a re-analysis of the deposited data

How the results depend on the processing

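Of the calls on single genes, the falls of *Srebf1* at WL1 and WL2 and of *Insig1* at WL2 against Pre passed in 20 of 20 alternatives, and that of *Insig1* at WL1 in 19. The genes of the 10 past the threshold numbered 4 at WL1 against Pre, 5 with DESeq2 (*Cebpa* added) and 5 without a filter (*Cebpb* added). They numbered 2 with the replicate block, 2 in the fit of the compared phases alone, 1 with limma on log2(FPKM + 1) without a filter, and 2 to 4 with a library left out. Without Pre replicate 3 the 4 held *Cebpa* in place of *Mlxipl*. At WL2 against Pre they numbered 3, 4 with DESeq2 (*Nr1h3* added), and 2 to 3 with a library left out. At WL2 against WL1 they numbered 4, 2 with the replicate block, 0 with unfiltered limma (where 31 genes of all passed), and 0 to 4 with a library left out. Over all genes the counts were 1350 at WL1 against Pre (2344 with DESeq2, 844 with the block, 341 with unfiltered limma, 512 to 1500 with a library left out), 1853 at WL2 against Pre (761 with unfiltered limma, 743 to 1688 with a library left out) and 681 at WL2 against WL1 (1668 without a filter, 1935 with DESeq2, 330 with the block, 1051 in the fit of the phases alone, 37 to 1351 with a library left out). The cause was not tested.

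Signs turned in 7 cases, none of them past the threshold. *Scap* at WL2 against WL1 was 0.00026 with the filter on 3 libraries, 0.036 with upper quartile factors, 0.026 with library totals and 0.015 without WL1 replicate 1. *Cebpa* at WL2 against Pre was 0.0069 without Pre replicate 2, *Cebpb* at WL2 against WL1 was -0.041 without WL1 replicate 1, and *Srebf1* at WL2 against WL1 was -0.0051 without WL1 replicate 3. The leave-one-out values ran from -0.35 to 0.0069 for this *Cebpa* change, from -0.041 to 0.49 for *Cebpb*, from -0.0051 to 0.075 for *Srebf1* and from -0.038 to 0.015 for *Scap*.

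Replicate numbers showed no pairing of the libraries by this measure: of 9 pairs with the same number, 1 had a correlation of deviations over 0.1 (range -0.277 to 0.107). Pairs with different numbers ran from -0.197 to 0.239. With 3 libraries per phase, this check cannot exclude a batch shared by number. With the replicate block, *Mlxipl* (adjusted p = 0.0993) and *Klf15* (0.0682) at WL1 against Pre, *Insig2* at WL2 against Pre (0.0828) and *Pparg* (0.0792) and *Insig2* (0.0620) at WL2 against WL1 missed the threshold by edgeR. Depth was 16434450 to 22729072 counts per library, and the 10 genes had at least 547 counts in every library.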

Other observations

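Ratios within a library show how members of a pair shifted against each other. *Srebf1* to *Srebf2*, in FPKM, was 5.91, 4.10 and 4.93 at Pre, 3.09, 2.97 and 2.32 at WL1 and 3.12, 3.70 and 3.39 at WL2, so that the Pre libraries lay above all others. *Nr1h3* to *Nr1h2* was 1.99, 1.81 and 2.16 at Pre, 1.20, 1.51 and 1.59 at WL1 and 1.42, 1.26 and 1.30 at WL2, again without overlap between Pre and the later phases. *Insig1* to *Scap*, the retention factor against the escort protein, went from 18.7, 9.57 and 12.7 at Pre to 6.94, 6.36 and 7.80 at WL1 and 4.57, 3.23 and 3.50 at WL2. *Cebpa* to *Cebpb* overlapped among the phases, with 6.64 to 10.2 at Pre, 6.20 to 11.8 at WL1 and 9.44 to 12.7 at WL2. These ratios are descriptions of 3 libraries per phase and were not tested.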
